A study of Mus musculus with 12 samples.

Results

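Chromatin accessibility was compared between motor neuron cultures in which Hoxc6 was induced with doxycycline (Dox) and cultures of the same cell line without Dox. The paper describes the culture at this stage as made up mostly of postmitotic motor neurons and interneurons. The members are accessible domains at least 150 bp wide that were present in the list of one condition and overlapped, by 1 bp or more, no domain of any width in the list of the other, on chromosomes 1 to 19, X and Y. By this rule 3639 of 41107 iHoxc6 domains were absent from the no Dox list and are termed gained (8.85%, 95% Wilson interval 8.58 to 9.13), and 5537 of 45088 no Dox domains were absent from the iHoxc6 list and are termed lost (12.3%, 12 to 12.6). Together these were 9176 of the 234412 domains of that width in the lists of all conditions.

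The cells were mouse embryonic stem cells grown as embryoid bodies (EBs) and directed to a spinal motor neuron fate by 1 µM retinoic acid (RA) together with 0.5 µM SAG, which activates Hedgehog signalling. Both groups used here were Ainv15(iFlag.Hoxc6) EBs at day 4 of RA and SAG, an engineered line with a Flag-tagged Hoxc6 transgene. Of these groups, only iHoxc6 was given Dox, at 3 µg/mL over the final 48 h, so that a response to Dox itself cannot be told apart from a response to Hoxc6. The other groups were Ainv15(iCre) EBs before patterning, Ainv15(iCre) progenitors at day 2 of RA and SAG, and Ainv15(iFlag.Hoxc9) and Ainv15(iFlag.Hoxc10) EBs at day 4 with the same Dox treatment. The assay was ATAC-seq, in which a transposase inserts sequencing adapters into open DNA, and each of the 6 groups had 2 samples.

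A single list was deposited for each group, made by the authors from both of its samples, with the start and end of each domain and no height or read count. There is therefore no value per sample and no spread between samples, no difference below was tested across samples, and all intervals cover counting error only. Gained and lost describe presence in a list, since a domain missing from a list can still be weakly open. Read depth is unknown. The lists also differed in form. The no Dox list covered 29.7 Mb and the iHoxc6 list 24.8 Mb, neighbouring domains came as close as 37 bp without Dox but no closer than 200 bp in iHoxc6, and the no Dox list carries additional constant columns, so the settings of domain calling may have differed. Its deposited name further carries day 6 and a value of 0.05, where the sample labels give day 4, and the name of the iHoxc6 list carries its labelled day and no such value. The labels were followed, and if the name were right every gained and lost domain would also differ by 2 days of culture. The part of sequencing run, depth and calling in the counts cannot be told apart from that of induction. As a check of the labelled cell type, the motor neuron markers Isl1, Mnx1, Lhx3, Chat and Slc18a3 and the progenitor marker Olig2 had a promoter domain in both lists, and the pluripotency markers Pou5f1 and Nanog in neither. The former promoters were also open in EBs, so they do not set motor neurons apart from other cells.

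Hox genes encode homeodomain transcription factors that give spinal motor neurons their position along the body axis, and Hoxc6 belongs to the central paralogs, which act at brachial levels where limb-innervating motor neurons form. Central Hox proteins prefer sites built on TAAT, and posterior ones such as Hoxc9 and Hoxc10 also bind sites with ATAAA. Hox proteins bind many targets together with the TALE homeodomain cofactors Pbx and Meis, on bipartite sites in which a Pbx half-site and a Hox half-site lie side by side. Matches were counted on both strands. The central consensus was TAAT, then A, G or T, then A or G, and the posterior consensus was 2 bases other than G followed by ATAAA. The bipartite motif was TGATNNAT, with N any base. TAATTA is itself a central match, and TGATNNAT can overlap either Hox consensus.

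The sequences of 4 gained domains are shown because they carry the Hox matches on which the comparison turns. Those of Sp8 and Ptchd4 were taken for their width and the others after their values were seen, and all lie outside annotated exons. The domain nearest Olig2, the motor neuron progenitor factor, is chr16:91175914-91176211 (298 bp, 49.4 kb from the transcription start site, TSS) and was also in the iHoxc9 and iHoxc10 lists. The one in an intron of Meis2, a TALE cofactor, is chr2:115906003-115906317 (315 bp), found in none of the other 4 lists. The domains nearest Sp8, a zinc finger factor (chr12:118719782-118720493, 712 bp), and Ptchd4 (chr17:42029112-42029717, 606 bp) are among the widest gained ones. Of domains over 300 bp the 300 bp around the centre are printed. All are reference sequence of GRCm38 on the plus strand, and capitals mark central and posterior consensus matches.
Olig2: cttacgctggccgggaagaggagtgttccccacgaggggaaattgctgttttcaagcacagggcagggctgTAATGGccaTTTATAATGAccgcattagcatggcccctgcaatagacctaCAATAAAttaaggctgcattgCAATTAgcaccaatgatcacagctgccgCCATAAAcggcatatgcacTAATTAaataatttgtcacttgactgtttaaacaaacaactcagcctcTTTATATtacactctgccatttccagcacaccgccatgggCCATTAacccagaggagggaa
Meis2: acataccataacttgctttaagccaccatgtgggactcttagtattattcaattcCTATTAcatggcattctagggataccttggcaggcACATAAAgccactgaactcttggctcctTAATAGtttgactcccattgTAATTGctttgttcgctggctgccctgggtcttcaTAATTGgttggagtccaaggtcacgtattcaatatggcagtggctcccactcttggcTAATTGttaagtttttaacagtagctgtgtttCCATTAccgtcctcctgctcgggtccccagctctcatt
Sp8: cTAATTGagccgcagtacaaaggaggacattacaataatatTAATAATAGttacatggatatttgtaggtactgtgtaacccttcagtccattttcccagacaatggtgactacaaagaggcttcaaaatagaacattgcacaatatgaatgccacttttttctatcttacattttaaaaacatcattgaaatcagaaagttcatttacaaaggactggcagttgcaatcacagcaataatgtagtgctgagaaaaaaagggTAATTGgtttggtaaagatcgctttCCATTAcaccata
Ptchd4: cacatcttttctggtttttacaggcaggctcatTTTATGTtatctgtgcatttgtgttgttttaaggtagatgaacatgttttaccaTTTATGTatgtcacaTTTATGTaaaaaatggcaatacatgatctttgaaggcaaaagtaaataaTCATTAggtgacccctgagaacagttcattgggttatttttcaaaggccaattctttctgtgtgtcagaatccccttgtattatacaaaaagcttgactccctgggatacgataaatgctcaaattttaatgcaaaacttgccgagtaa

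Of these domains, the one near Olig2 held 5 central and 4 posterior matches, and the whole Meis2 domain held 7 central matches and 2 posterior ones. The Sp8 domain held 7 central matches in 712 bp, 5 of them in the printed stretch, and was present in progenitors. For lost domains, capitals mark TGATNNAT on either strand, the motif in which that class stood out. The lost domain in an intron of Ebf1, a neuronal differentiation factor, is chr11:44628267-44628616 (350 bp), held 3 such matches and lay 57 bp from an iHoxc6 domain. The one in an intron of Hoxa2 is chr6:52166460-52166751 (292 bp), held 1 and lay 410 bp from one. Both were chosen after their values were seen. The domain nearest Smyd2 is chr1:190017760-190018647 (888 bp) and held 2, of which 1 is printed.
Ebf1: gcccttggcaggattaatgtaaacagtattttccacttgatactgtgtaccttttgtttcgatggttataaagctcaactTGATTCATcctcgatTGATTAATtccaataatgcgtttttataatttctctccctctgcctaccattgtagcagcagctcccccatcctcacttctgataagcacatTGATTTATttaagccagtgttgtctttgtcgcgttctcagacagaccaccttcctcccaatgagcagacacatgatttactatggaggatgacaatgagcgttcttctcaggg
Hoxa2: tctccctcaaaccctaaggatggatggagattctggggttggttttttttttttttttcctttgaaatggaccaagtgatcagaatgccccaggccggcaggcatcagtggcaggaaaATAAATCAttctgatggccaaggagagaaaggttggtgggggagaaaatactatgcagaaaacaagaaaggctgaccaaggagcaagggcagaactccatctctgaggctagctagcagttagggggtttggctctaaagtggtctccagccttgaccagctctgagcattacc
Smyd2: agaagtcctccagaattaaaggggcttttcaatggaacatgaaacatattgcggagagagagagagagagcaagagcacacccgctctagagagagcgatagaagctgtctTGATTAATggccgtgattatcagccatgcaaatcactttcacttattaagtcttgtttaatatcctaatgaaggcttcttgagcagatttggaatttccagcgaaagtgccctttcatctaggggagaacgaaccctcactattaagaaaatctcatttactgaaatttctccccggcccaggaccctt

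Gained and lost domains were narrow. The median width of gained domains was 223 bp (range 150 to 745), against 421.5 bp for iHoxc6 domains shared with no Dox, and that of lost domains was 236 bp (150 to 1239), against 478 bp. From 200 to under 300 bp, 19.4% of iHoxc6 domains were gained (18.6 to 20.3) and 28.5% of no Dox domains were lost (27.5 to 29.4). From 500 to under 1000 bp the shares were 0.551% (60 of 10885) and 1.73% (196 of 11318). Of iHoxc6 domains of 1000 bp or more, 0 of 5037 were gained, which allows a share of up to 0.0596% by the limit of 3 counts of the total (0.0762% by the Wilson interval), and 1 of 7922 such no Dox domains was lost. The minimum width was no natural boundary: just below it, at 140 to under 150 bp, 25.9% of iHoxc6 domains had no counterpart, and just above it, at 150 to under 160 bp, 18.9%. For no Dox domains these shares were 30.5% and 22.8%. The counts depend on the rule for overlap: 7908 domains were gained and 12569 lost when the other list was also limited to domains of at least 150 bp. Many members lay close to a domain of the other list. The gap was 1 kb or less for 25.5% of gained and 32.8% of lost domains, and its median was 5.37 kb and 3.46 kb.

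**Figure D1:**
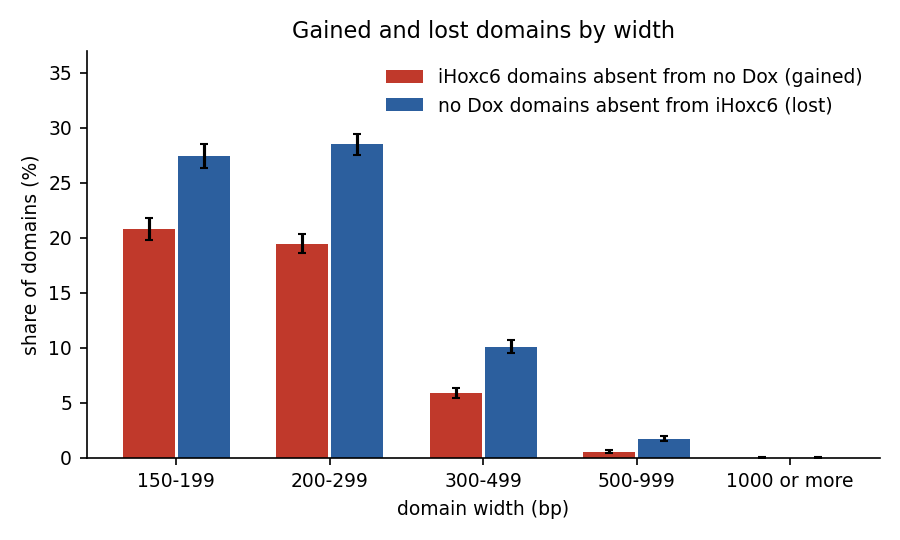
Share of iHoxc6 domains absent from no Dox (red) and of no Dox domains absent from iHoxc6 (blue) in 5 classes of width; bars are shares in percent and error bars 95% Wilson intervals. Both shares are far lower from 300 bp upwards, and the lost share is the higher one in each class.

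Both classes lay mostly away from promoters. A promoter domain was one within 1 kb of the TSS of a protein-coding gene, and 7.75% of gained domains (6.92 to 8.66) and 8.78% of lost domains (8.06 to 9.55) were of that kind, against 35.9% and 33.7% of the shared domains of the same lists. Introns held 41% of gained and 41% of lost domains, and intergenic DNA 40.9% and 39.6%, against 27.2% to 29.7% of shared domains. Coding exons held 2.09% of gained and 2.17% of lost domains. The median distance to the nearest TSS was 47.3 kb for gained and 39.1 kb for lost domains, compared with 11.2 and 13.2 kb for shared ones. Gained and lost domains were also poorer in GC (49.2% and 48.7%, against 57.7% and 56.4%) and in CpG (19.3 and 16.3 per kb, against 53.8 and 48.9). Repeats, read from soft-masked bases, made up 9.69% of gained and 11.9% of lost sequence, against 8.11% and 8.92%. The X chromosome had a lower gained share, 5.4% (49 of 908), than any autosome (7.15% to 9.93%), and on the Y chromosome 1 of 41 iHoxc6 domains was gained.

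A part of the gained domains was shared with other lines or earlier stages. Of the 3639 gained domains, 36.6% (35.1 to 38.2) overlapped a progenitor domain and 22.9% an EB domain. Of these gained domains, 32.2% (30.7 to 33.7) were in the iHoxc9 list and 29.9% (28.4 to 31.4) in the iHoxc10 list. Lost domains were found less in these induced lists, 20% (19 to 21.1) in iHoxc9 and 22.1% (21 to 23.2) in iHoxc10, and about as much in progenitors (38.9%). These intervals of gained and lost domains in the induced lists do not overlap, though the iHoxc9 and iHoxc10 cells, like iHoxc6 cells, also received Dox. Their lists also resembled the iHoxc6 list in form. None had a gap as small as the 37 bp of no Dox, and each held a mitochondrial domain, which no Dox lacked. Shared domains had the same order. In iHoxc9 were 81.9% of those in the iHoxc6 list and 79.6% of those in the no Dox list, and in iHoxc10 85.1% and 82.9%. The part of list form in these differences was not tested. Domains absent from EBs and progenitors but present in iHoxc9 or iHoxc10 made up 23.5% of the gained class (855 domains) and 14.4% of the lost class (799). None of the other 4 lists held 32.2% of gained domains (1173) and 39.5% of lost domains (2186), whereas this was so for 2.71% and 3.37% of shared domains.

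**Figure D2:**
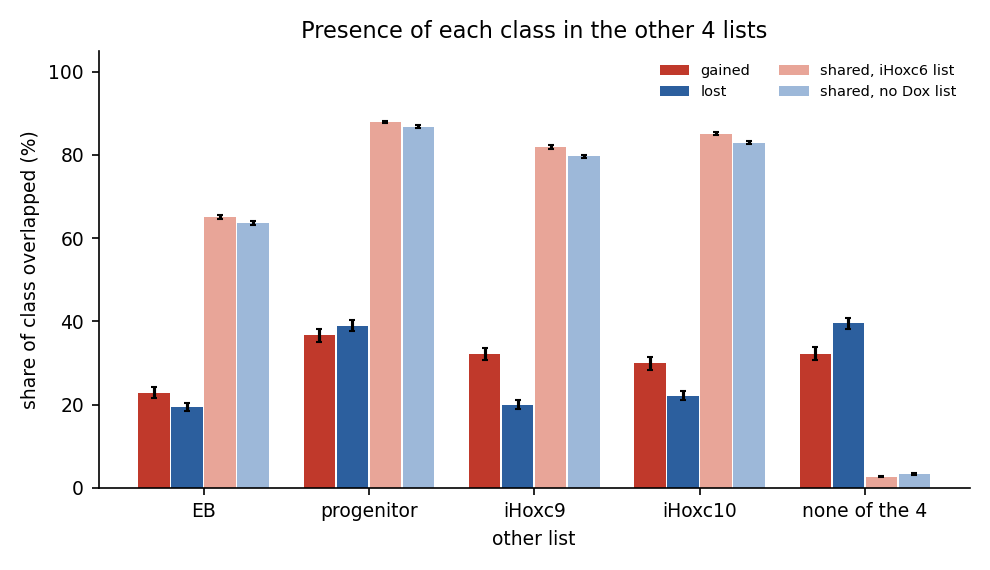
Share of each class (percent, with 95% Wilson intervals) that overlaps a domain of the EB, progenitor, iHoxc9 or iHoxc10 list or of none of these. Gained domains (dark red) are held by iHoxc9 and iHoxc10 more than lost domains (dark blue), and shared domains (pale) are held by all 4 lists at 63.6% or more.

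Hox consensus matches were denser in gained domains. The central consensus occurred 3.73 times per kb of gained domain and 1.66 times per kb of shared iHoxc6 domain, a ratio of 2.25 (exact 95% interval 2.17 to 2.33), and 51.2% of gained domains held at least 1 match, against 47.6% of the wider shared ones. The posterior consensus occurred 2.05 and 1.03 times per kb, a ratio of 1.99 (1.9 to 2.09). Lost domains were also above shared no Dox domains, by 1.79 (1.74 to 1.85) for the central and 1.56 (1.49 to 1.62) for the posterior consensus. Shared domains held more promoters and were richer in GC, as given above. With promoter domains left out, the ratios were 1.38 (1.33 to 1.44) and 1.29 (1.23 to 1.36) for gained domains and 1.17 (1.13 to 1.2) and 1.08 (1.03 to 1.12) for lost domains.

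A part of the excess remained in gained domains, and none in lost domains, once shared domains were weighted by classes of base composition and width. Shared distal domains were weighted to the GC content, in 13 classes, and the width, in 3 classes, of each group of members. This weighting is termed equal GC content and width below. The widest class was open, at 300 bp or more, so width can differ within it. There, 538 distal gained domains were under 500 bp and 54 were wider, against 7696 and 5693 shared ones. The central density of these shared domains was 3.03 and 2.69 per kb. The part of this in the ratios was not tested. At equal GC content and width the 3357 distal gained domains held 3213 central matches, 1.15 times the number from shared domains (1.11 to 1.19), and 1737 posterior matches, 1.14 times (1.09 to 1.19). For the 5051 distal lost domains the ratios were 0.992 (0.963 to 1.02) and 0.979 (0.94 to 1.02). In each of 5 classes of GC content the central ratio of gained domains lay between 1.13 and 1.22, and that of lost domains between 0.912 and 1.11. The posterior ratio of gained domains lay between 0.955 and 1.11, below 1 in the class richest in GC. At a fixed width of 200 to under 300 bp, 54.6% of distal gained domains (52.1 to 57.1) held a central match, compared with 48.4% of shared iHoxc6 domains (47.2 to 49.7), 49.7% of lost domains (47.6 to 51.7) and 49.7% of shared no Dox domains (48.4 to 51). For the posterior consensus these shares were 37.6%, 29.9%, 33.3% and 30.5%.

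The bipartite motif was denser in lost than in gained domains, and its direction in gained domains depended on the reference. Over all domains the TGATNNAT ratio to shared domains was 1.75 (1.6 to 1.91) in the gained class and 2.3 (2.16 to 2.44) in the lost class, and over distal domains 1.03 (0.943 to 1.13) and 1.42 (1.33 to 1.5). TGATNNAT occurred 0.652 times per kb of distal gained domain and 0.926 times per kb of distal lost domain, so that gained domains held 0.704 times the density of lost ones (0.635 to 0.781). At equal GC content and width the ratio to shared domains was 0.851 (0.78 to 0.927) in the gained class and 1.17 (1.11 to 1.24) in the lost class. In the 5 classes of GC content it lay between 1.23 and 1.42 in lost domains and between 0.781 and 1.03 in gained domains. Among the 16 possible forms of the motif, the highest ratios in lost over shared distal domains were those of TGATTGAT, 1.79 (1.48 to 2.15), and TGATTAAT, 1.78 (1.48 to 2.14). The same forms had ratios of 0.72 (0.477 to 1.05) and 0.865 (0.599 to 1.21) in gained domains, both with intervals that include 1. TGATTTAT, the form at the Hoxa2 intron, had a ratio of 1.46 (1.24 to 1.72) in lost and 0.97 (0.755 to 1.23) in gained domains. These forms were compared after the motif's excess had been seen.

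**Figure D3:**
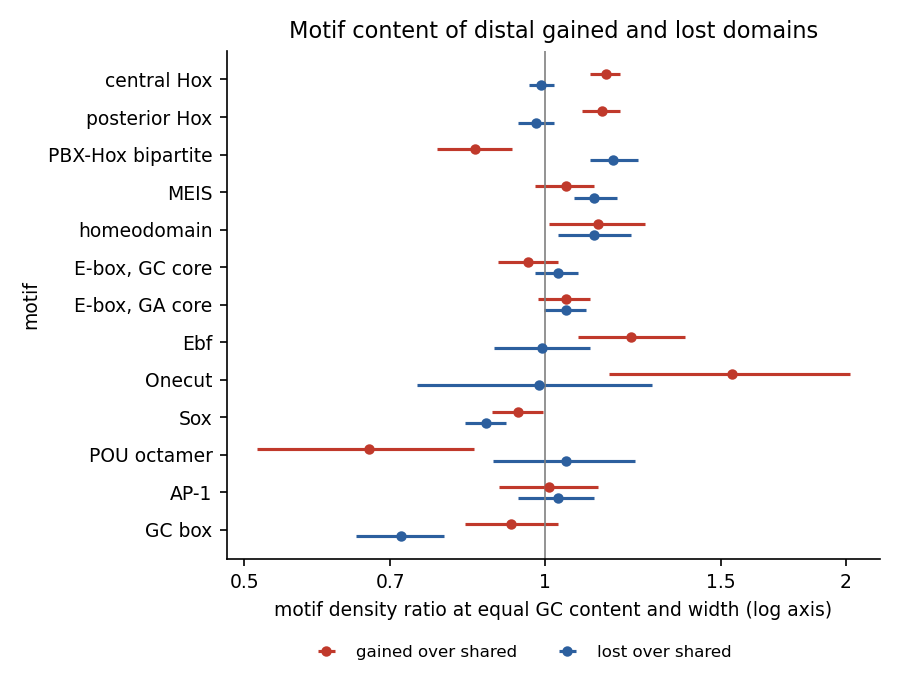
Motif density in distal gained (red) and lost (blue) domains relative to distal shared domains of the same list. Shared domains were weighted by classes of GC content and width, the widest class being open from 300 bp. The horizontal axis is logarithmic and bars are 95% Poisson intervals. The central and posterior Hox consensus lie above 1 in gained domains and near 1 in lost domains, and the PBX-Hox bipartite motif lies above 1 in lost and below 1 in gained domains.

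Other motifs were compared in the same way, at equal GC content and width. ATCGAT, bound by Onecut factors of differentiating motor neurons, was at 1.54 (1.16 to 2.02, 54 matches) in gained and 0.987 (0.745 to 1.28) in lost domains. CCCNNGGGA, bound by Ebf factors, was at 1.22 (1.08 to 1.38) in gained and 0.994 (0.889 to 1.11) in lost domains. The POU octamer ATGCAAAT was at 0.667 (0.515 to 0.85, 65 matches) in gained and 1.05 (0.887 to 1.23) in lost domains. TGACAG, the Meis site, was at 1.05 (0.977 to 1.12) in gained and 1.12 (1.07 to 1.18) in lost domains, while TAATTA, a site of many homeodomain factors, was at 1.13 and 1.12. The E-boxes CAGCTG (GC core) and CAGATG (GA core) and the AP-1 site TGANTCA lay between 0.962 and 1.05 in both classes. ACAAAG, the Sox site, was at 0.939 (0.885 to 0.995) and 0.872 (0.831 to 0.915), and the GC box GGGCGG at 0.925 and 0.717 (0.647 to 0.792). At 200 to under 300 bp, ATCGAT was present in 1.33% of distal gained and 0.905% of distal shared iHoxc6 domains, CCCNNGGGA in 5.5% and 6.13% (the reverse of the order of its ratio above), ATGCAAAT in 1.79% and 2.85%, and TGATNNAT in 14.7% and 16%. In this width class 19% of lost domains held TGATNNAT, against 16.7% of shared no Dox domains.

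Position within the domain gave the same contrast without any other domain as reference. In distal gained domains the central consensus occurred 4.2 times per kb in the central 200 bp and 3.22 times per kb at 600 to 1000 bp to either side, a ratio of 1.3 (1.25 to 1.36). That ratio was 1.09 (1.05 to 1.13) in lost domains and 1.05 and 1.03 in shared domains of the iHoxc6 and no Dox lists. For TGATNNAT it was 1.63 (1.51 to 1.75) in lost domains, 1.24 and 1.3 in shared domains, and 1.04 (0.933 to 1.15) in gained domains. The posterior consensus was less frequent in the centre than in the flanks in all classes, at 0.725 (0.687 to 0.765) in gained, 0.642 (0.612 to 0.674) in lost and 0.596 and 0.588 in shared domains. The E-box CAGCTG was enriched in the centre by 2.35 in gained and 2.35 in lost domains and by 2.42 in both shared classes. Centres of open domains differ in base composition from their flanks, and these ratios were not corrected for it.

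**Figure D4:**
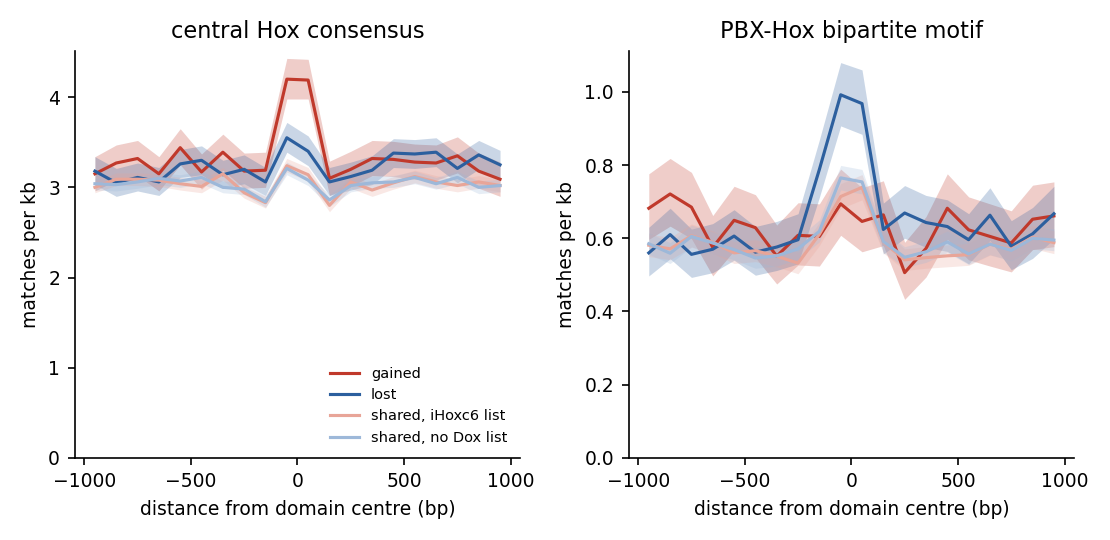
Matches per kb in 100 bp steps around the centres of distal domains of the 4 classes, for the central Hox consensus (left) and the PBX-Hox bipartite motif (right); bands are 95% Poisson intervals. Gained domains (dark red) peak at the centre on the left, with 4.2 matches per kb in the central 200 bp, and lost domains (dark blue) peak on the right, with 0.98.

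Motif content varied within the gained class. Gained domains absent from progenitors (2306) had a central density of 4.45 per kb, 2.69 times that of all shared iHoxc6 domains (2.58 to 2.8), whereas gained domains present in progenitors (1333) had 2.55 per kb, 1.54 times (1.44 to 1.65). Gained domains held by iHoxc9 or iHoxc10 (1646) had a posterior density of 2.46 per kb, 2.39 times (2.25 to 2.55), and those held by neither had 1.67 per kb, 1.63 times (1.51 to 1.75). Their central densities were close, 3.78 and 3.68 per kb. Lost domains had the same order, with central ratios of 1.9 outside and 1.64 inside the progenitor list, and posterior ratios of 1.8 and 1.42 inside and outside the iHoxc9 and iHoxc10 lists. Base composition was not equalised in these subsets. By the same rule, 3655 of 31062 iHoxc9 domains (11.8%) and 3114 of 33814 iHoxc10 domains (9.21%) were absent from the no Dox list, beside 8.85% for iHoxc6. Their central ratios were 3.42 and 2.49 and their posterior ratios 5.3 and 3.14, beside 2.25 and 1.99 for iHoxc6. Promoter domains were kept in these ratios. They made up 2.71% of the gained domains in iHoxc9, 5.81% in iHoxc10 and 7.75% in iHoxc6. These 3 comparisons share the no Dox list, which is of the iHoxc6 line, so for iHoxc9 and iHoxc10 the cell line differs as well. No test of the difference between the comparisons was made.

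At the level of genes, each domain was assigned to the protein-coding gene with the nearest TSS. Of 21851 genes, 12.4% had a gained domain and 17.3% a lost domain, and 1236 genes had both. The genes with the most gained domains were Zfhx3, a zinc finger homeobox factor, with 10, Efna5, an ephrin ligand of axon guidance, with 8, and Adgrl2, Celf4, Meis2, Nrxn3, Pde4d and Reep3 with 7 each. Flrt2 and Gbe1 had 6, in a tie of 5 genes. Of these genes, Flrt2, a cell adhesion protein, had 6 gained and 0 lost domains. The others had between 1 and 6 lost domains as well. The most lost domains were assigned to Zfp386 (20), Prl2c3 (12), and Acvr2a, Ebf1, Kazn and Zfp981 (8 each), followed by Bnc2, Grid1, Hjurp and Jag1 (7, in a tie of 10 genes). Prl2c3 and Zfp981 belong to multicopy gene families, where short reads can map to several copies, and their counts are uncertain. The count of Zfp386 is uncertain as well, because the nearest TSS can be far from a domain. The widest lost domain (1239 bp) lay 983.0 kb from the Zfp386 TSS, outside the gene.

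Within the Hox clusters, gained and lost domains were few. Of the 39 Hox genes, 6 had a gained domain (15.4%) and 9 a lost domain (23.1%), and 7 of the 90 iHoxc6 domains nearest to them were gained (7.78%) and 13 of the 98 no Dox domains lost (13.3%), both near the shares over all genes. The HoxD cluster had 1 gained and 0 lost domains, HoxA 0 and 4, HoxB 2 and 5, and HoxC 3 and 4. The gained domain at the Hoxd4 promoter (chr2:74721702-74722155, 454 bp) held 6 posterior matches, and that at the Hoxc4 promoter (chr15:103018780-103018968, 189 bp) held 2. Both domains were in both the iHoxc9 and the iHoxc10 list and in neither EBs nor progenitors, and lay 3121 and 3052 bp from the nearest no Dox domain. The gained domain of Hoxb3 (308 bp, coding exon) held no match and lay 190 bp from one. Among the lost domains, Hoxb3 had 3, Hoxc5 had 2, and Hoxa2, Hoxa4, Hoxb6, Hoxb9, Hoxc4 and Hoxc8 had 1 each. They included a promoter domain at Hoxb9 (chr11:96271157-96271400, 244 bp) and 1 in an intron (chr15:102999679-102999924, 246 bp) that held 3 central matches. The latter was assigned to Hoxc8 by its nearest TSS, 9.2 kb away, but lies outside Hoxc8 and within the annotated span of Hoxc6.

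At the induced gene itself, 2 domains were gained, and the lost domain assigned to Hoxc8 also lay within its annotated span. The gained ones were chr15:103009634-103009972 (339 bp, all of it coding sequence of Hoxc6) and chr15:103010834-103011075 (242 bp, of which 205 bp are coding), and no other domain of at least 150 bp in either list was nearest to Hoxc6. The first was also in the iHoxc9 list, and neither was in the iHoxc10 list. The iHoxc6 line carries an additional copy of Hoxc6 as a transgene, and reads from its coding sequence map to the same exons, so these domains cannot be told apart from signal of the transgene.

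The TALE cofactor genes had the highest gained share of the 13 gene lists. Of the 104 iHoxc6 domains nearest to the 9 genes, 18 were gained (17.3%, 11.2 to 25.7, against 8.85% over all genes), and of 114 no Dox domains 21 were lost (18.4%, 12.4 to 26.5, against 12.3%). With promoter domains left out, since these were seldom gained or lost, the shares were 19.6% (12.7 to 28.8) and 20.6% (13.9 to 29.4), against 12.3% and 16.1% of all distal domains, so the lost interval then includes the share over all genes. This alternative was added after seeing the data. Meis2 had 7 gained and 6 lost domains, Meis1 3 and 7, Pbx3 2 and 1, and Pknox2 2 and 1. A 497 bp intergenic domain assigned to Pbx3 (chr2:34153552-34154048), 218.2 kb from its TSS, held 5 central and 6 posterior matches. It was also in the iHoxc9 and iHoxc10 lists. This domain and those of Slc5a7 and Foxp1 described below were singled out after their values were seen.

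For the 11 motor neuron and cholinergic genes, 10 of 79 iHoxc6 domains were gained (12.7%, 7.02 to 21.8) and 5 of 75 no Dox domains were lost (6.67%, 2.88 to 14.7), and both intervals include the 8.85% and 12.3% over all genes and overlap each other. With promoter domains left out, the gained share was 14.9% (8.31 to 25.3), whose interval includes the 12.3% of all distal domains. The lost share was then 4.84% (3 of 62, 1.66 to 13.3), and its interval lies below the 16.1% of all distal no Dox domains. Isl1, the LIM homeodomain factor that specifies motor neurons, had 2 gained and 0 lost domains, as did Slc5a7, the choline transporter. Slit2, a secreted axon guidance cue, had 4 gained and 1 lost, and Lmo4 had 2 of each. One of the gained domains assigned to Slc5a7 (chr17:54685349-54685573, 225 bp) held 4 central matches and was in the iHoxc9 and iHoxc10 lists. It lay far outside the gene itself (chr17:54273590-54299034).

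Genes of motor columns and pools, which include downstream markers of limb-level motor neurons, gained 33 of 277 domains (11.9%, 8.61 to 16.3) and lost 50 of 322 (15.5%, 12 to 19.9). Both intervals include the shares over all genes. Of these 27 genes, 17 had a gained and 24 a lost domain (63% and 88.9%, against 12.4% and 17.3% of all genes). These gene counts are not adjusted for the number of domains per gene. The 27 genes had 277 iHoxc6 domains, whereas all 21851 genes had 41107. Axon guidance genes had similar values, 70.4% with a gained and 81.5% with a lost domain. Esrrg, an orphan nuclear receptor of gamma motor neurons, had 4 gained and 2 lost domains, and the orphan receptors Nr2f1 and Nr2f2 had 4 and 3, and 4 and 1. Foxp1, the cofactor that specifies limb-innervating motor neurons, had 2 gained and 4 lost domains. Aldh1a2, the RA-synthesising enzyme that marks limb-level motor neurons and was named after its values were seen, had 0 gained and 2 lost domains. They were a promoter domain (chr9:71216254-71216517, 264 bp), 43 bp from an iHoxc6 domain, and an intergenic one of 289 bp that held 3 central matches and lay 27064 bp from any. Both were in the iHoxc10 list. The paper reports Aldh1a2 (as Raldh2) and Foxp1 RNA as induced by Hoxc6 overexpression in this system. Domain counts do not measure expression. Gfra1, a receptor for a neurotrophic factor, had 3 of each, and Sema3e, a guidance cue, had 2 and 0. Runx1 had the most lost domains of this list, 5, with 2 gained, and Zeb2 and Cdh11 had 2 gained and 3 lost each. Both gained domains of Foxp1 were intronic each held 1 central match, and both were in the iHoxc9 and iHoxc10 lists. Its 4 lost domains were intronic too, between 160 and 211 bp wide, and held 3, 2, 0 and 0 central matches.

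Axon guidance genes held 43 gained of 322 iHoxc6 domains (13.4%, 10.1 to 17.5) and 44 lost of 345 (12.8%, 9.64 to 16.7), against 8.85% and 12.3% over all genes. With promoter domains left out the gained share was 14.8% (11.2 to 19.4), whose interval includes the 12.3% of all distal domains. Efna5 had 8 gained and 5 lost domains, Robo1, a Slit receptor, 4 of each, and Plxna1, Unc5d, Efnb2 and the netrin receptor gene Dcc 3 gained domains each. Robo2, Nrp1, Nrp2, Plxnd1, Sema6d and Epha5 had 2 gained domains each and between 0 and 2 lost. For the ventral progenitor factors the shares were 6.94% gained (4.01 to 11.7) and 9.66% lost (6.12 to 14.9). Olig2 had 2 gained and 4 lost domains, among them a gained domain of 161 bp and a lost one of 156 bp only 38 bp apart, Sox2 3 and 1, Foxa2 3 and 1, and Irx3 2 and 3. Of neuronal differentiation genes, 12 of 197 domains were gained (6.09%) and 35 of 216 lost (16.2%, 11.9 to 21.7, an interval that includes the 12.3% over all genes), led by Ebf1 with 3 and 8, and Ebf3 had 2 of each. RA pathway genes had shares of 11.9% and 14.1%, with 4 gained domains at Cyp26b1, an RA-degrading enzyme, and 3 lost domains at the receptor gene Rara, and Hedgehog pathway genes 8.22% and 14.1%, with 1 gained and 3 lost domains at Ptch1. The intervals of these progenitor, RA and Hedgehog shares all include the shares over all genes. With promoter domains left out, the lost share of the ventral progenitor factors was 10.1% (6.29 to 15.7). That interval lies below the 16.1% of all distal no Dox domains. Their gained share was then 7.89% (4.57 to 13.3), an interval that includes 12.3%. The RA and Hedgehog intervals still included the shares over all distal domains.

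Mesoderm and endoderm factors, pluripotency genes, and neural crest and dorsal factors had high lost shares. Among mesoderm and endoderm factors 11 of 37 no Dox domains were lost (29.7%, 17.5 to 45.8), among pluripotency genes 10 of 38 (26.3%, 15 to 42), among neural crest and dorsal factors 16 of 63 (25.4%, 16.3 to 37.3) and among spinal interneuron factors 17 of 90 (18.9%, 12.1 to 28.2), against 12.3% over all genes. Of these 4 intervals, that of the interneuron factors includes the share over all genes. With promoter domains left out the first 3 were 35.7% (20.7 to 54.2), 31.2% (18 to 48.6) and 28.8% (18.3 to 42.3), against 16.1% of all distal no Dox domains. Their gained shares were 8%, 5.71%, 9.62% and 9.09%, near the 8.85% over all genes. Gata6 and Eomes had 3 lost domains and 1 gained domain each, Klf5 3 and 1, and Ets1 5 and 0, whereas Msx1 had 0 lost and 2 gained. Lost domains were assigned to 6 of 11 mesoderm and endoderm factors and 6 of 11 pluripotency genes (54.5% each). For neural crest and dorsal factors it was 7 of 11 (63.6%), against 17.3% of all genes, unadjusted for domains per gene. Members with 0 lost domains included Pou5f1, Nanog, Zfp42, Klf2, Dppa3, T, Tbx6, Mesp1, Gata4, Mixl1, Snai2 and Zic1. The interneuron factors Pax7 and Lmx1b had 3 lost domains each, with 2 and 1 gained, and Pax2 had 2 of each. In a bulk culture, fewer cells of a type and less open chromatin per cell cannot be told apart. Promoter domains of any width were absent at T and Zfp42 from both day 4 lists compared here, and present at Sox17, Gata4, Tbx6 and Tfap2a in both. At Sox10, a neural crest marker, the no Dox list had a promoter domain and the iHoxc6 list had none. Sox10 had 0 lost domains of at least 150 bp assigned to it. The part of other cell types in the lost domains was not tested.

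**Figure D5:**
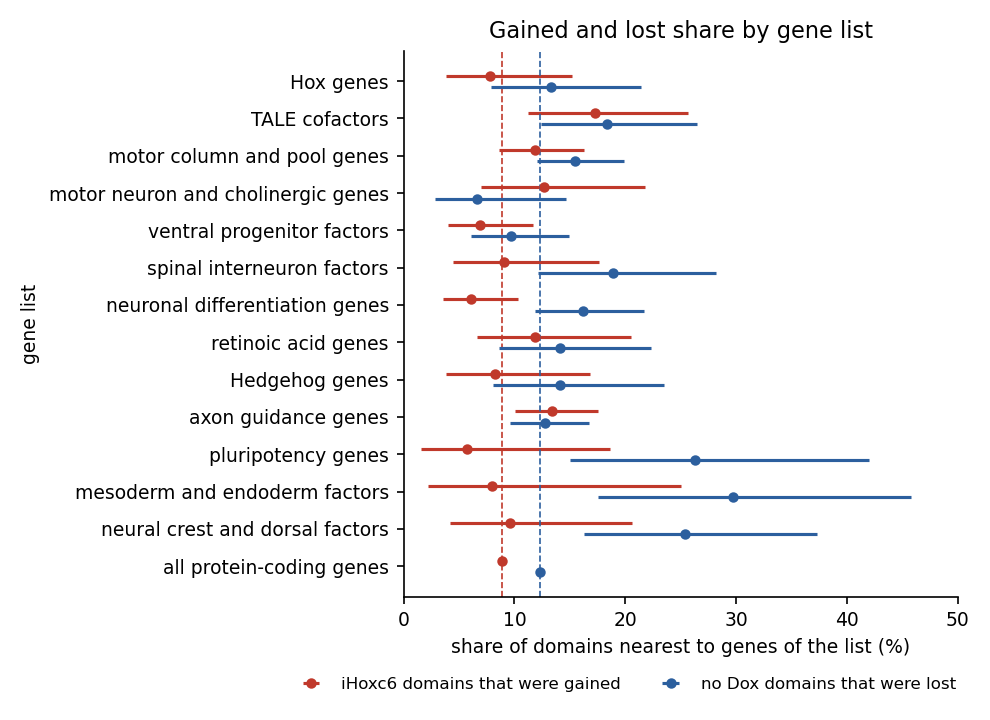
Share of the iHoxc6 domains nearest to the genes of each list that were gained (red) and of the no Dox domains that were lost (blue), in percent with 95% Wilson intervals; dashed lines mark the shares over all protein-coding genes, 8.85% and 12.3%. The lost share is highest for mesoderm and endoderm factors (29.7%) and the gained share for TALE cofactors (17.3%).

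Among single sites, the widest gained domains lay nearest Slc24a4 (chr12:102091345-102092089, 745 bp, intergenic), Ctnnd2 (chr15:30646457-30647187, 731 bp, coding exon) and Gucy1a1 (chr3:82145133-82145849, 717 bp, promoter), besides that near Sp8 and 1 in an intron of Flt1 (chr5:147633862-147634570, 709 bp). The Slc24a4 domain held 3 central and 3 posterior matches, lay 20468 bp from the nearest no Dox domain, and was in iHoxc9 and iHoxc10 but not in EBs or progenitors. The Ctnnd2 and Gucy1a1 domains held no match of either Hox consensus. The Sp8 domain was 491 bp from a no Dox domain. Of gained domains found in no other list, the widest were those near Ptchd4 (5 central and 7 posterior matches), at 2310079G19Rik (chr16:88634827-88635374, 548 bp, 1 of each) and in an intron of Kcnj12 (chr11:61042667-61043207, 541 bp, 3 and 1).

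The widest lost domains, after that assigned to Zfp386, were nearest Prl2c3 (chr13:12897802-12898732, 931 bp), in an intron of Gtf2a1 (chr12:91642855-91643747, 893 bp), and nearest Smyd2 and Fam98a (chr17:75603109-75603995, 887 bp). The Smyd2 domain held 8 central matches, lay 12742 bp from any iHoxc6 domain and was present in progenitors and iHoxc9. The Gtf2a1 and Fam98a domains each held 5 central and 2 posterior matches and were in the iHoxc10 list. The Zfp386 and Prl2c3 domains lay 287 and 275 bp from an iHoxc6 domain.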

How the data were processed

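The authors aligned 75 bp paired-end ATAC-seq reads of 12 samples to mm10 (GRCm38) using Bowtie2 2.2.2, and called accessible domains with DomainFinder on both samples of a group together. Picard 2.8.2 appears in the submitters' processing notes, and no calling threshold is stated for the lists, although the name of the no Dox list carries 0.05. The deposited lists hold the start and end of each domain. Starts were read as in BED and printed from 1, which may be off by 1 bp. Mitochondrial and unplaced domains were left out.

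Genes came from GENCODE M21 (41438 TSS of 21851 protein-coding genes), and location within genes from the midpoint of a domain. Intervals are 95% Wilson for shares, exact Poisson for densities and exact conditional for ratios. The code was checked on simulated lists and sequences (3615 checks, 0 differed). Python 3.11.15, NumPy 2.4.6, pandas 2.3.3, SciPy 1.17.1, samtools 1.23.1 and matplotlib 3.10.9 were used.

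Members, gene lists and comparisons were chosen with earlier results of these data known. Genes named were the 10 with most gained and the 10 with most lost domains, Hox genes with either, and listed genes with at least 2 gained or the most lost domains of their list. Sites named were the 5 widest gained, the 5 widest lost and the 3 widest gained in no other list. Others are stated as chosen after their values were seen, and some items that these rules select are not reported here. Alternatives covered width, overlap, list length, promoter definition and motif strings.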

Additional observations from a re-analysis of the deposited data

Results flagged for a closer look

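The iHoxc6 list held 1 domain on the mitochondrial genome, 16274 bp wide, and the no Dox list held 0. The comparison left out mitochondrial DNA, and the other 4 lists each held 1 such domain. No read counts stand behind these entries, and whether mitochondrial reads were removed before the no Dox list was made is not given in the sources used here.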

How the results depend on the processing

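With 1 list per group, no result could be set against replicates, no sample could be left out, and depth is unknown. No paired analysis was possible because each list was made from both replicates of its group together. The counts depend on the definition of a shared domain, while promoter shares stayed below those of shared domains under all alternatives. There were 36495 gained and 36001 lost domains (promoter shares 6.2% and 8.49%; motif ratios central 1.58 gained and 1.42 lost, posterior 1.33 and 1.11) with no minimum width, 663 gained and 1269 lost domains (promoter shares 10.7% and 9.69%; motif ratios central 2.39 gained and 2 lost, posterior 2.26 and 1.73) with a minimum of 300 bp, and 60 gained and 197 lost domains (promoter shares 10% and 11.7%; motif ratios central 3.02 gained and 2.15 lost, posterior 2.59 and 1.87) with a minimum of 500 bp. There were 2946 gained and 4239 lost domains (promoter shares 5.16% and 4.55%; motif ratios central 2.36 gained and 1.9 lost, posterior 2.03 and 1.6) when domains within 500 bp counted as shared, 8523 gained and 14693 lost domains (promoter shares 10.4% and 12.3%; motif ratios central 1.98 gained and 1.66 lost, posterior 1.87 and 1.51) when the overlap had to cover at least 50% of the tested domain, and 7908 gained and 12569 lost domains (promoter shares 8.41% and 8.27%; motif ratios central 2.03 gained and 1.76 lost, posterior 1.81 and 1.5) when the other list was also limited to 150 bp. With both lists limited to their 41107 widest domains, there were 9342 gained and 10059 lost domains (promoter shares 8.37% and 9.08%; motif ratios central 1.98 gained and 1.8 lost, posterior 1.76 and 1.55). Joining close domains or using autosomes only left counts within 1.5 times (3639 and 5536 joined; 3589 and 5435 on autosomes). Promoter shares were 17.1% and 21.4% within 5 kb and 10.5% and 12.6% with all annotated genes. The string TAAT gave ratios of 2.01 and 1.74, and ATAAA 1.86 and 1.58. Motif ratios were central 1.88 gained and 1.51 lost, posterior 1.86 and 1.53 in the central 150 bp, central 1.38 gained and 1.17 lost, posterior 1.29 and 1.08 without promoter domains, and central 2.34 gained and 1.83 lost, posterior 2.17 and 1.6 without soft-masked bases. At equal GC content and width without promoters, chosen after seeing the data, they were central 1.15 gained and 0.992 lost, posterior 1.14 and 0.979, which turns both lost ratios below 1. The TGATNNAT ratio of gained domains was 1.75 over all domains and 0.851 there, and that of lost domains 2.3 and 1.17. The cause of the other changes was not tested.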

Other observations

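Widths were compared at domains that both lists held as a single pair. Among 18453 distal pairs of at least 150 bp the median ratio of the iHoxc6 to the no Dox width was 0.917, and 36.5% of pairs were wider in iHoxc6; at 11042 promoter pairs these values were 0.861 and 21.3%. The median ratio hardly varied with central Hox matches in the middle 150 bp, from 0.916 with 0 matches (12080 pairs) to 0.947 with 3 or more (515 pairs). It was lower with more matches of the E-box CAGCTG, a site of proneural factors: 0.921 with 0 matches, 0.899 with 1, 0.855 with 2 (313 pairs) and 0.654 with 3 or more, the last over 26 pairs only. All pairs come from the same 2 lists, and widths depend on depth and domain calling, whose part was not tested.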
